A study of Mus musculus with 32 samples.

Results

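The mitochondrially encoded genes were followed in primary mouse white adipocytes that had received siRNA and had then been given cholesterol. All genes of the deposited table whose name starts with mt- were taken, which gave 37 of 56748 genes. They comprised 13 mRNAs, 2 rRNAs and 22 tRNAs, all on chromosome MT.

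Cells received one of 4 siRNA treatments, namely a scramble sequence, siNfe2l1, siAtf3, or siNfe2l1 and siAtf3 together. Cells of each kind were left as control or were given cholesterol at 400 µM for 6 hours, delivered on methyl-β-cyclodextrin. The 8 groups held 4 libraries each, 32 in all, labelled as biological replicates and numbered 1 to 4. All cells were labelled wild type and all had been transfected with siRNA, so no group was free of transfection. The labels do not say whether control cells received the cyclodextrin carrier, or from how many animals or cultures the libraries came, so the p-values measure the spread between these libraries. RNA was enriched for poly(A) tails before sequencing, and the libraries held 23457384 to 33828418 counts. Levels are given as CPM, counts scaled to a common library size after the library totals were adjusted by the trimmed mean of M-values (TMM), and a result given on library totals leaves that adjustment out.

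The adipocyte identity is taken from the labels. The summed level of 8 adipocyte marker mRNAs was 12495 to 16539 CPM in the control libraries and 15388 to 20387 CPM with cholesterol. That of 7 precursor or fibroblast markers was 11208 to 20973 CPM in control and 2408 to 6903 CPM with cholesterol. The libraries therefore did not hold RNA of adipocyte markers alone. As a check of the silencing, Nfe2l1, a transcription factor that drives proteasome genes, was lower with siNfe2l1 than with scramble by -2.72 (log2) in control cells and -2.76 with cholesterol. With both siRNAs the corresponding values were -2.09 and -2.38. Atf3, a stress-induced transcription factor, was lower with siAtf3 by -1.40 (log2) in control cells and -3.28 with cholesterol. With both siRNAs Atf3 differed by -0.80 in control cells, which missed the threshold (edgeR adjusted p = 0.0503), and by -2.97 with cholesterol. Atf3 itself rose with cholesterol in scramble cells, by 3.89 on the log2 scale.

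The mitochondrial genome is a small circular DNA whose strands are each transcribed as long RNAs. These are cut mainly at the tRNAs that lie between the other genes, which frees the mRNAs and rRNAs. The mRNAs then receive short poly(A) tails from the polymerase Mtpap, and the rRNAs receive at most a few added adenines. The 13 proteins are subunits of respiratory complexes I, III and IV and of the ATP synthase. The rRNAs and tRNAs serve the mitochondrial ribosome, and the remaining subunits are made from nuclear genes. White adipocytes use this machinery for fat oxidation and for the synthesis of fatty acids and glycerol.

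Because the libraries were enriched for poly(A), the 3′ ends of members were read from the GENCODE M21 transcripts. The start, end, strand and length of all 37 members in that annotation, made on GRCm38, were equal to those of the deposited table, made on GRCm39. The last 30 bases of 5 mRNAs are shown 5′ to 3′, with the stop codon, or the part of it that is encoded, in capitals. mt-Nd1 and mt-Co1 carry a whole stop codon, while in mt-Nd4, mt-Co3 and mt-Cytb only a T is encoded and the added adenines complete it.
mt-Nd1: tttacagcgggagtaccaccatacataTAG
mt-Co1: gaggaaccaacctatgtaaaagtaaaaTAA
mt-Nd4: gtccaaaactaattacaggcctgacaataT
mt-Co3: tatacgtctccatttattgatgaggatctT
mt-Cytb: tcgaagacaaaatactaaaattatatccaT

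The longest encoded run of A in each rRNA is shown in capitals, because capture on oligo(dT) can start from such runs as well as from tails. The run was 5 bases long in mt-Rnr1 and 7 bases long in mt-Rnr2.
mt-Rnr1, bases 616 to 660: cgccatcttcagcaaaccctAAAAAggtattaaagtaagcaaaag
mt-Rnr2, bases 375 to 421: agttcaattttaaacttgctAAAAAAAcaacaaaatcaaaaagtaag

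A second set of sequences bears on what the counts of single mRNAs can hold. Nuclear chromosomes carry copies of mitochondrial DNA, and some of these are annotated as pseudogenes with the same letters. The first 32 bases of mt-Nd3, a complex I subunit gene, and of its nuclear copy Gm28438 are shown with the differing base in capitals. It was the only difference in 345 bases compared.
mt-Nd3: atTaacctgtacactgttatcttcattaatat
Gm28438: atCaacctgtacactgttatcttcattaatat

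Bases 24 to 83 of mt-Co1 and of its copy Gm13340 show a more diverged pair, in which 37 of 1545 bases differed.
mt-Co1: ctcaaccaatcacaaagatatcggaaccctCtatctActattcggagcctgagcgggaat
Gm13340: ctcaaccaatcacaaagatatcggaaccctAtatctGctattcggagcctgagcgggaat

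Levels per kilobase of gene differed widely among the mRNAs, although they come from shared transcripts. mt-Co1 (MT, 5328 to 6872), the catalytic subunit of complex IV, was highest at 4643 CPM per kb as a mean over the 8 groups. mt-Cytb, the complex III subunit, stood at 2014 CPM per kb. Of the complex I subunits, mt-Nd1 stood at 1692, mt-Nd2 at 1580, mt-Nd6 at 1206, mt-Nd5 at 1054 and mt-Nd4 at 802.5 CPM per kb. The other 6 mRNAs were far lower, with mt-Co2 at 153.8, mt-Nd3 at 58.1, mt-Atp6 at 54.2, mt-Co3 at 47.5, mt-Nd4l at 24.6 and mt-Atp8 at 3.41 CPM per kb.

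Those low mRNAs were, apart from mt-Atp8, the ones whose letters are also found in nuclear transcripts. The share of 50-base windows that occur unchanged in a nuclear transcript was 100% for mt-Co2, 99.9% for mt-Co3, 99.5% for mt-Atp6, 98.8% for mt-Nd4l and 98.0% for mt-Nd3. It was 62.2% for mt-Nd4, 51.1% for mt-Co1, 8.2% for mt-Nd2 and 7.6% for mt-Nd5, and 0% for mt-Atp8, mt-Nd1, mt-Nd6 and mt-Cytb. How the counting treated reads that fit several places is not given in the sources used here, so the levels of these 5 mRNAs may lack such reads, which was not tested. Changes between groups in the 5 are therefore uncertain. The same may hold in part for mt-Nd4 and mt-Co1, with 62.2% and 51.1% of their windows shared. The nuclear copies held counts of their own, which were not small beside those of the genes they copy. Gm28661 had group means of 59.1 to 77.8 CPM, Gm10925 of 24.8 to 31.8 CPM and Gm28437 of 14 to 16.8 CPM. Their mitochondrial counterparts mt-Co2, mt-Atp6 and mt-Co3 stood at 105.2, 36.9 and 37.2 CPM as means over the 8 groups.

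**Figure D1:**
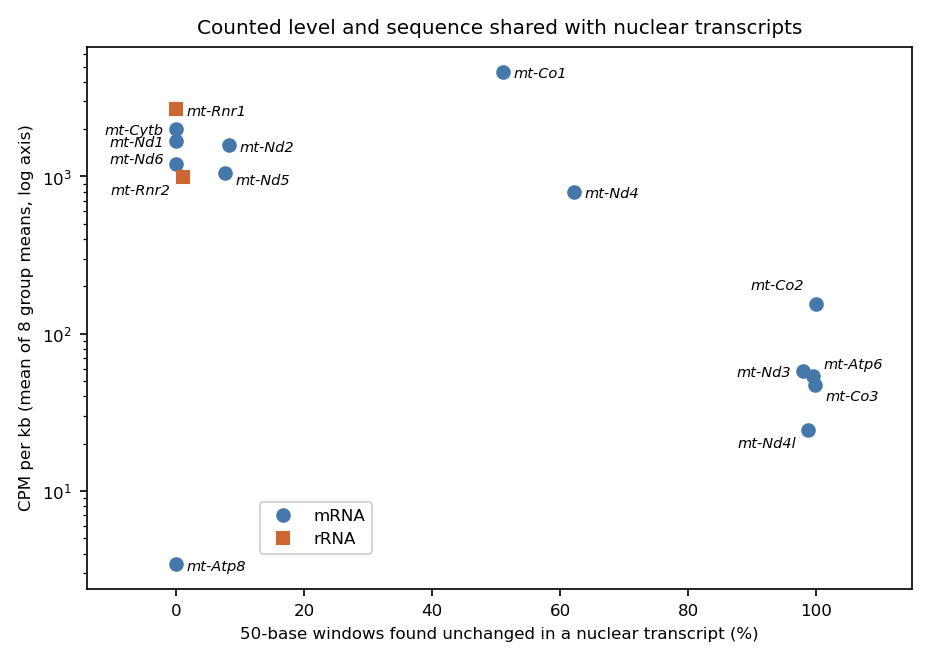
Level of each mitochondrial mRNA and rRNA (CPM per kb of gene, mean over the 8 groups, log axis) against the percentage of its 50-base windows that occur in a nuclear transcript of GENCODE M21. mt-Co2, mt-Co3, mt-Atp6, mt-Nd4l and mt-Nd3 lie at 98.0% or more and at 153.8 CPM per kb or less, while mt-Co1 at 51.1% has the highest level, 4643 CPM per kb.

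As a class, the 13 mRNAs made up 1.75% ± 0.08 (SD, n = 4) of all counts in scramble control cells and 1.44% ± 0.15 with cholesterol. With siNfe2l1 the share was 1.53% ± 0.1 in control and 1.55% ± 0.29 with cholesterol, and with siAtf3 it was 1.62% ± 0.1 and 1.81% ± 0.097. With both siRNAs it was 1.74% ± 0.079 and 1.83% ± 0.15. The 2 rRNAs behaved apart from this. They held 0.239% to 0.359% of counts in the 16 control libraries and 0.435% to 0.627% in the 16 cholesterol libraries, with no overlap. The 22 tRNAs together held 0.0191% to 0.0247% of counts as group means.

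The rRNAs rose with cholesterol under all 4 siRNA treatments. mt-Rnr1 (MT, 70 to 1024), the 12S rRNA of the small ribosomal subunit, stood at 1638, 1670, 1503 and 1613 CPM in scramble control libraries 1 to 4. With cholesterol it stood at 4090, 3231, 3423 and 3333 CPM, so the groups did not overlap. The difference was 1.13 ± 0.08 (log2, SE), with an edgeR adjusted p of 2.26e-13 by the quasi-likelihood test and Benjamini-Hochberg adjustment over 16984 genes. Over all genes tested, 65.2% passed the threshold of 0.05 in this comparison, 32.9% as higher and 32.3% as lower.

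mt-Rnr2 (MT, 1094 to 2675), the 16S rRNA of the large subunit, stood at 876.3, 891.2, 930.9 and 1019 CPM in scramble control and at 2991, 2289, 2464 and 2234 CPM with cholesterol. It rose by 1.42 ± 0.14 (log2; edgeR adjusted p = 6.51e-10), and its lowest cholesterol library lay above its highest control library. Per 100 counts of mt-Rnr1 there were 58.0 counts of mt-Rnr2 in scramble control and 70.7 with cholesterol.

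With siNfe2l1, mt-Rnr1 went from 1991, 1926, 1938 and 2094 CPM to 3865, 3169, 2906 and 3302 CPM, a rise of 0.74 (log2; edgeR adjusted p = 3.33e-09). mt-Rnr2 went from 1060, 876.7, 946.1 and 1029 CPM to 2649, 1961, 1658 and 1817 CPM, a rise of 1.05 (edgeR adjusted p = 1.65e-07). Neither rRNA had overlapping groups, and 60.4% of all genes were called in this comparison, 31.3% as higher and 29.2% as lower.

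With siAtf3, mt-Rnr1 went from 1833, 1691, 1710 and 1774 CPM to 3560, 2715, 2712 and 2748 CPM, a rise of 0.74 (log2; edgeR adjusted p = 3.21e-09). mt-Rnr2 went from 1018, 880.3, 869.8 and 989.9 CPM to 2547, 1672, 1637 and 1707 CPM, a rise of 1.01 (edgeR adjusted p = 3.51e-07). The background share of called genes was 58.4%, and library 1 with cholesterol stood apart from the other 3 in both rRNAs.

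With both siRNAs, mt-Rnr1 went from 1834, 1876, 1933 and 2138 CPM to 3584, 3141, 3134 and 3540 CPM, a rise of 0.78 (log2; edgeR adjusted p = 1.01e-09). mt-Rnr2 went from 1172, 1258, 1081 and 1252 CPM to 2485, 2084, 2008 and 2158 CPM, a rise of 0.87 (edgeR adjusted p = 2.95e-06), against a background of 59.2% of genes called. Library 1 was the highest of its group for both rRNAs in all 4 cholesterol groups. Without the 8 libraries numbered 1, the rises were 0.65 to 1.06 for mt-Rnr1 and 0.80 to 1.30 for mt-Rnr2, and all 8 calls held.

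**Figure D2:**
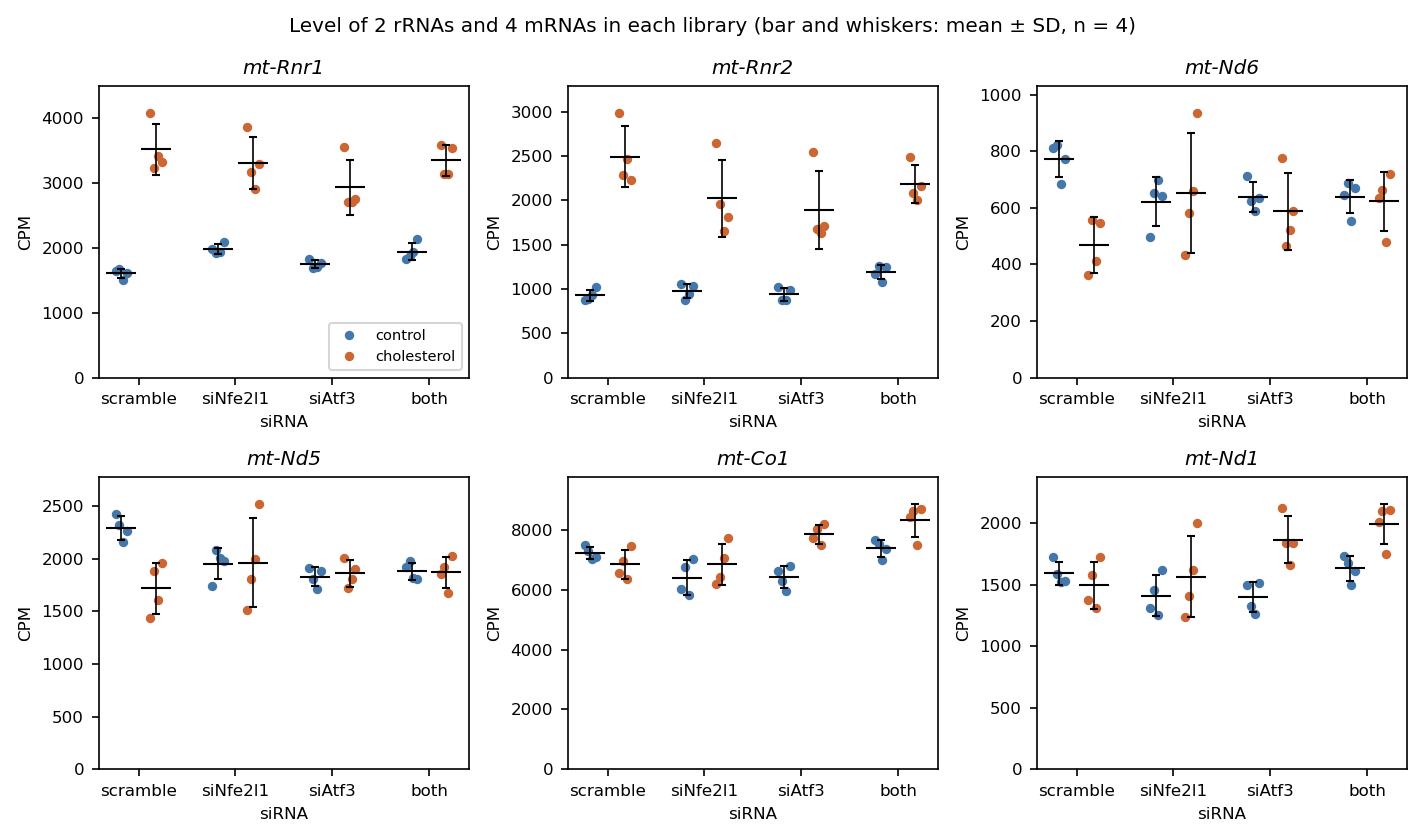
CPM of mt-Rnr1, mt-Rnr2, mt-Nd6, mt-Nd5, mt-Co1 and mt-Nd1 in each library, with libraries 1 to 4 from left to right within each of the 8 groups. Blue points are control and orange points cholesterol libraries, and bars with whiskers give the mean ± SD (n = 4). Both rRNAs lie higher in every cholesterol library, and mt-Nd6 and mt-Nd5 lie lower with cholesterol in the scramble groups.

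The ratio of rRNA to mRNA counts therefore shifted in all arms. Per 100 mRNA counts there were 14.3 ± 0.658 rRNA counts in scramble control and 38.3 ± 7.39 with cholesterol (SD, n = 4). The ratio went from 19.2 to 33.2 with siNfe2l1, from 18.1 to 27.4 with siAtf3 and from 19.1 to 30.5 with both siRNAs.

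In poly(A)-enriched libraries a count of rRNA reflects both how much of it is present and how much of it was captured. Values are given for 2 other RNAs without long tails, chosen after their values were seen, and both had higher group means with cholesterol. Members did not all do so. In scramble cells mt-Nd6, which lacks a tail in human cells, differed by -0.72 (log2). Of the 12 tRNAs tested, 8 lay below 0 in scramble cells and 8 with siNfe2l1, against 0 with siAtf3 and 2 with both siRNAs. Rn18s-rs5, which carries cytoplasmic 18S rRNA sequence, stood at 3786, 4052, 2581 and 1296 CPM in scramble control and at 9675, 3516, 3310 and 3857 CPM with cholesterol. These groups overlapped, and the difference of 0.80 (log2) missed the threshold (edgeR adjusted p = 0.106). In the other arms the Rn18s-rs5 differences were 0.88 (adjusted p = 0.0798) with siNfe2l1, 0.98 (0.0546) with siAtf3 and 0.67 (0.186) with both siRNAs. The mean effect over the 4 siRNA treatments was 0.83 (edgeR adjusted p = 0.0011).

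Rn7sk, a small nuclear RNA made by RNA polymerase III, stood at 1.87, 2.28, 1.66 and 0.704 CPM in scramble control and at 34.3, 18.8, 21.4 and 20 CPM with cholesterol. It rose by 3.86 (log2; edgeR adjusted p = 2.79e-10), by 2.90 with siNfe2l1, by 2.19 with siAtf3 and by 2.70 with both siRNAs. Library 1 was again the highest of every cholesterol group for Rn7sk. The part of capture in the rise of the mitochondrial rRNAs was not tested.

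**Figure D3:**
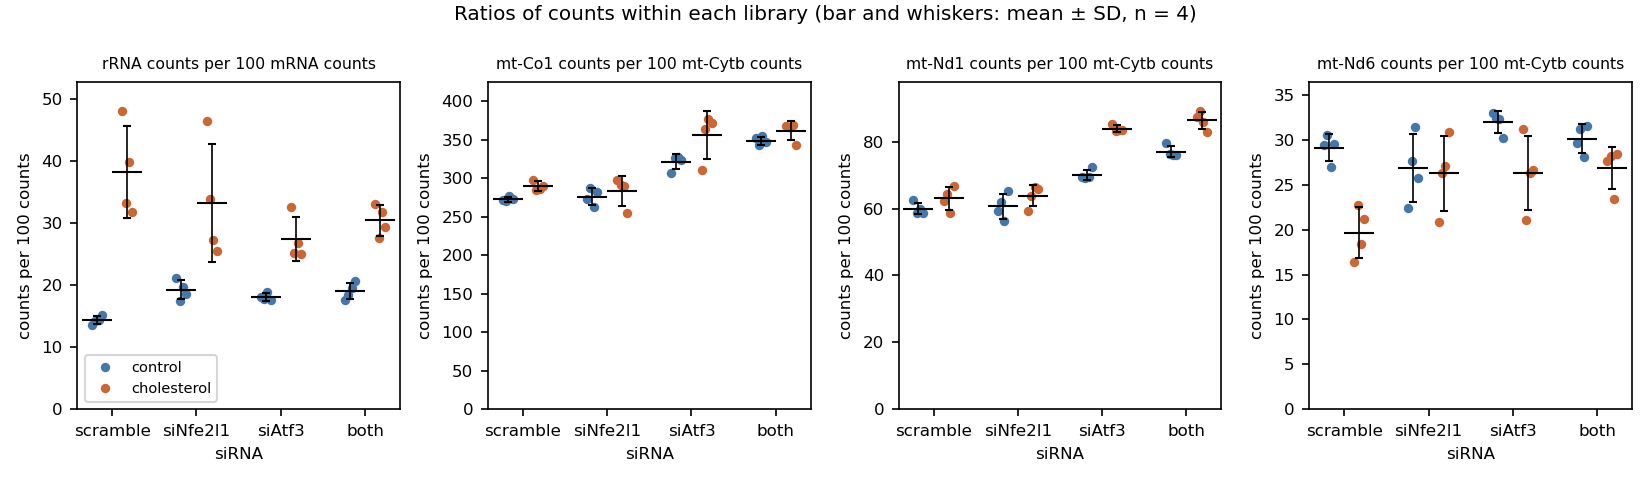
Ratios of counts in each library by group. The panels give rRNA counts per 100 mRNA counts and the counts of mt-Co1, mt-Nd1 and mt-Nd6 per 100 counts of mt-Cytb, with control in blue and cholesterol in orange. The rRNA ratio is higher with cholesterol in all 4 siRNA treatments, from 14.3 to 38.3 in scramble cells and from 18.1 to 27.4 with siAtf3.

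Among the mRNAs, cholesterol lowered 3 of 13 and raised none in scramble cells. Their median difference was -0.20 (log2) against 0 over all genes tested, and 12 of the 13 lay below 0. The background of lower calls was 32.3%. All 3 were complex I subunit mRNAs. mt-Nd6 (MT, 13552 to 14070) is the only mRNA encoded on the opposite strand from the others, and in human cells it is known to lack a poly(A) tail. It stood at 810.9, 823.2, 685.4 and 772.2 CPM in scramble control and at 361.1, 556.8, 411.5 and 548.0 CPM with cholesterol. The groups did not overlap, and mt-Nd6 fell by 0.72 ± 0.19 (log2, SE; edgeR adjusted p = 0.00165).

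mt-Nd5 (MT, 11742 to 13565), which forms part of the proton-pumping arm of complex I, stood at 2426, 2323, 2158 and 2267 CPM in scramble control and at 1436, 1881, 1609 and 1960 CPM with cholesterol. It fell by 0.41 ± 0.10 (log2; edgeR adjusted p = 0.00097), again without overlap. mt-Nd5 and mt-Nd6 lie on opposite strands and share bases 13552 to 13565. Whether strand was used in counting is not given in the sources used here, so reads in a shared stretch cannot be told apart. Without strand, antisense RNA read anywhere along mt-Nd6 would also be counted for it. The level and fall of mt-Nd6 may therefore hold such reads, which was not tested.

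mt-Nd4, its neighbour in the same arm of the complex, stood at 1348, 1287, 1183 and 1212 CPM in scramble control and at 1062, 1147, 995.9 and 1174 CPM with cholesterol. Its difference was -0.20 ± 0.08 (log2; edgeR adjusted p = 0.0338). This call was lost without scramble control library 1 or 2 or scramble cholesterol library 1 or 3, with adjusted p-values of 0.0908, 0.0582, 0.0878 and 0.107. On library totals mt-Nd4 was called, with a difference of -0.32 (adjusted p = 0.00259).

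The complex IV and complex III mRNAs did not pass the test in scramble cells. mt-Co1 stood at 7497, 7299, 7039 and 7118 CPM in control and at 6574, 6988, 6382 and 7489 CPM with cholesterol, a difference of -0.08 (log2; edgeR adjusted p = 0.285). mt-Cytb differed by -0.16 (adjusted p = 0.0893) and mt-Nd1 by -0.09 (adjusted p = 0.502). On library totals, which moved the median of all genes by -0.12 (log2) and the share of called genes that were higher from 50.5% to 38.9%, 9 members were called, 2 higher and 7 lower.

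With siNfe2l1, none of the 13 mRNAs passed the test of cholesterol against control. None had an unadjusted p under 0.05 in edgeR, DESeq2 called 0 and limma-voom called 1. mt-Nd6 stood at 495.7, 651.7, 699.4 and 642.6 CPM in control and at 432.9, 582.1, 660.4 and 937.2 CPM with cholesterol. The groups overlapped widely, and library 4 with cholesterol was high. The difference in mt-Nd6 was 0.07 ± 0.19 (log2; edgeR adjusted p = 0.768).

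With siAtf3, cholesterol raised 5 of 13 mRNAs and lowered none, against a background of 29.6% of genes higher. mt-Co1 stood at 6648, 6294, 5972 and 6790 CPM in control and at 7737, 8056, 7496 and 8198 CPM with cholesterol. The groups did not overlap, and it rose by 0.29 ± 0.06 (log2; edgeR adjusted p = 0.000152). mt-Nd1 (MT, 2751 to 3707), part of the membrane arm of complex I next to the ubiquinone site, stood at 1500, 1327, 1265 and 1514 CPM in control. With cholesterol it stood at 2121, 1838, 1658 and 1842 CPM and rose by 0.41 ± 0.11 (log2; edgeR adjusted p = 0.0029). mt-Nd2, another membrane-arm subunit, stood at 1538, 1340, 1212 and 1479 CPM and then at 2270, 1785, 1594 and 1768 CPM. It rose by 0.41 (log2; edgeR adjusted p = 0.00253), and for both mRNAs every cholesterol library lay above every control library.

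mt-Co2, the complex IV subunit that receives electrons from cytochrome c, was called with a difference of 0.33 (log2; adjusted p = 0.0207). mt-Atp6, the membrane subunit of the ATP synthase, was called at 0.62 (adjusted p = 0.0474). The mt-Co2 call was lost without siAtf3 cholesterol library 1 (adjusted p = 0.0615). It was also lost when counts of nuclear copies were added, an alternative chosen after seeing the data (edgeR adjusted p = 0.0557). That of mt-Atp6 was lost without any one of the 4 siAtf3 control libraries or siAtf3 cholesterol library 2 or 4 (0.0587 to 0.149), and neither was called on library totals (0.0874 and 0.091). mt-Nd6 and mt-Nd5 differed by -0.12 and 0.02 (adjusted p = 0.599 and 0.86).

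With both siRNAs, 2 of 13 mRNAs were higher with cholesterol and none lower, against a background of 29.9% higher and 29.3% lower. mt-Co1 stood at 7674, 7538, 6997 and 7358 CPM in control and at 8455, 8652, 7524 and 8697 CPM with cholesterol. Only its lowest cholesterol library reached into the control range, and the difference was 0.17 (log2; edgeR adjusted p = 0.0185). mt-Nd1 differed by 0.29 (edgeR adjusted p = 0.0315). The mt-Co1 call was lost without control library 3 (adjusted p = 0.0566). The mt-Nd1 call was lost without control library 3 or 4 or cholesterol library 1, 2 or 4 of this arm (0.0534 to 0.0843). Neither was called on library totals, where mt-Co1 differed by 0.10 (adjusted p = 0.215) and mt-Nd1 by 0.22 (0.135).

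**Figure D4:**
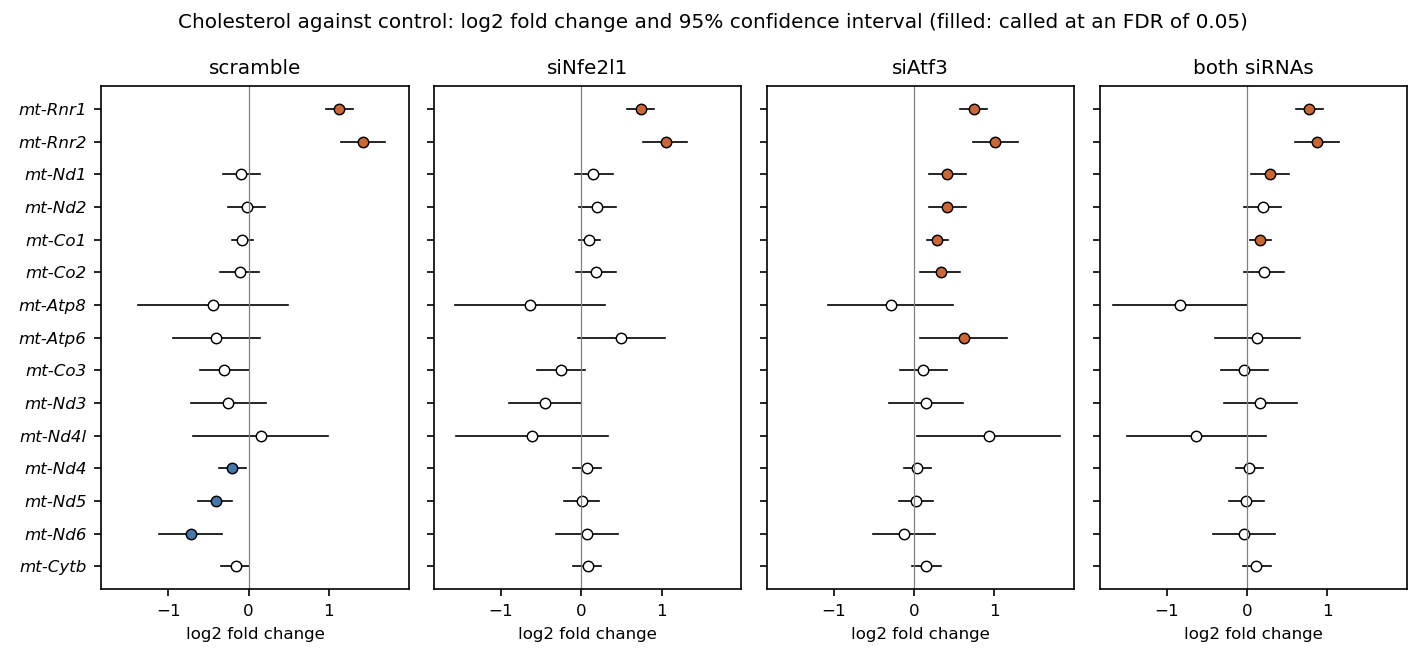
Difference between cholesterol and control (log2, with 95% confidence interval) for the 2 rRNAs and 13 mRNAs under each of the 4 siRNA treatments. Filled points passed the edgeR threshold, orange for higher and blue for lower. The rRNAs lie at 0.74 to 1.42 in all 4 panels, whereas mt-Nd6 lies at -0.72 in scramble cells and at -0.12 to 0.07 in the others.

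Whether the siRNAs changed the response to cholesterol was tested by interaction terms. Only some of the differences between arms passed this test. For siAtf3, 4 members were called, with 15.2% of all genes called, 6.18% as greater and 8.99% as smaller. The response of mt-Co1 was greater by 0.37 ± 0.09 (log2; edgeR adjusted p = 0.00512) than in scramble cells, and this held under every alternative run. That of mt-Nd1 was greater by 0.50 (adjusted p = 0.035) and that of mt-Nd5 by 0.44 (adjusted p = 0.0431), while that of mt-Rnr1 was smaller by -0.39 (adjusted p = 0.0224). The last 3 calls were each lost without scramble cholesterol library 1 (adjusted p = 0.0846, 0.118 and 0.0752) and without several other libraries. The count of 4 became 1 without scramble cholesterol library 1, 2 without scramble control library 1, siAtf3 control library 2 or 3, scramble cholesterol library 3 or siAtf3 cholesterol library 4, and 7 without scramble cholesterol library 4.

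For both siRNAs together, mt-Rnr1 was the 1 member called, against 13.5% of all genes (6.46% greater, 7.05% smaller), with a smaller response by -0.35 (adjusted p = 0.0432). It was lost without any one of 11 of the 16 libraries compared (adjusted p of 0.0523 to 0.135), among them all 4 scramble controls. The count of called members became 5 without scramble cholesterol library 2, 4 without its library 4, and 2 without control library 1 or cholesterol library 1 or 3 of the arm with both siRNAs. For siNfe2l1 no member was called in edgeR. The count at an unadjusted p under 0.05 was 5, DESeq2 called 1 and limma-voom 0, and 0.218% of all genes were called (0.177% greater, 0.0412% smaller). Without siNfe2l1 cholesterol library 1 there were 4 calls. The mt-Nd6 interactions were 0.79 (adjusted p = 0.159) with siNfe2l1, 0.60 (0.134) with siAtf3 and 0.68 (0.0871) with both, so a difference in its response between the arms was not shown. Those of mt-Rnr2 were -0.38 (0.34), -0.42 (0.142) and -0.55 (0.0519).

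The siRNAs were also compared with scramble directly. These comparisons share the scramble libraries, so their values are given side by side and not as separate evidence. In control cells siNfe2l1 changed 1 of 27 members tested, against 6.27% of all genes, 3.34% higher and 2.93% lower. mt-Rnr1 was higher by 0.31 (log2; edgeR adjusted p = 0.0179), and the groups did not overlap. Leaving out scramble control library 3 ended it (adjusted p = 0.0564), and without siNfe2l1 control library 4 there were 2 calls. No mRNA was called in edgeR, DESeq2 or limma-voom, although 4 had an unadjusted p under 0.05.

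In control cells siAtf3 lowered 7 of 13 mRNAs and raised none, against 36.8% of all genes called and 18.4% lower. mt-Cytb (MT, 14145 to 15288) stood at 2762, 2703, 2542 and 2607 CPM with scramble and at 2161, 1924, 1822 and 2096 CPM with siAtf3. It fell by 0.41 ± 0.09 (log2; edgeR adjusted p = 0.000282), with no overlap, and stayed called on library totals. mt-Nd5 fell by 0.32 (adjusted p = 0.0143) and mt-Nd4 by 0.28 (adjusted p = 0.00686), and both calls were kept when any one library was left out but not on library totals.

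The other 4 calls in that comparison were smaller or rested on single libraries. mt-Co1 differed by -0.17, mt-Nd2 by -0.30, mt-Co2 by -0.35 and mt-Atp6 by -0.73 (log2). Each was lost without siAtf3 control library 2 or 3, with adjusted p-values of 0.0558 to 0.122. The mt-Co2 call was also lost when counts of nuclear copies were added (edgeR adjusted p = 0.1). mt-Co1 and mt-Nd2 were also lost without scramble control library 1 (0.0671 and 0.0981), mt-Co2 without scramble control library 3 (0.0757), mt-Nd2 without scramble control library 2 or 4 (0.0648 and 0.0564) and mt-Atp6 without scramble control library 4 or siAtf3 control library 1 (0.155 and 0.0537). Over all members the count of 11 became 6 without siAtf3 control library 2 and 7 without library 3. On library totals, which moved the median of all genes by 0.15 (log2) and the share of calls that were higher from 50.1% to 76.0%, 5 members were called, 1 higher and 4 lower. There mt-Nd5 differed by -0.19 (adjusted p = 0.19), mt-Nd4 by -0.15 (adjusted p = 0.192) and mt-Co1 by -0.03 (adjusted p = 0.716).

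With both siRNAs in control cells, mt-Cytb differed by -0.33 (edgeR adjusted p = 0.00403) and mt-Nd5 by -0.29 (0.0394). mt-Rnr1 was higher by 0.28 (0.0107) and mt-Rnr2 by 0.36 (0.0459), against 28% of all genes called (13.4% higher, 14.6% lower). The mt-Nd5 call was lost without scramble control library 1, 2 or 4 or library 1, 3 or 4 of the double arm (0.0598 to 0.101), that of mt-Rnr2 without scramble control library 1, 2 or 3 or library 1, 2 or 4 of the double arm (0.0714 to 0.11), and that of mt-Rnr1 without library 4 of the double arm (0.051). Of the 6 members called, counting 2 tRNAs, 2 or 3 were left without scramble control library 1 or 2 or without any one of the 4 libraries with both siRNAs. On library totals 2 members were called, both higher, with the median of all genes moved by 0.11 and the share of higher calls from 47.9% to 74.7%. There mt-Cytb differed by -0.23 (adjusted p = 0.0618).

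With cholesterol present, siNfe2l1 changed none of the 27 members in edgeR, DESeq2 or limma-voom, against 19.8% of all genes in edgeR, 11.1% higher and 8.64% lower. At an unadjusted p under 0.05 there were 3 members. Without scramble cholesterol library 1 or 4 there was 1 call, and without siNfe2l1 cholesterol library 1 there were 3.

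With cholesterol, siAtf3 cells had more mt-Co1 than scramble cells, by 0.20 (log2; edgeR adjusted p = 0.00865), and more mt-Nd1, by 0.32 (0.0216). They had less mt-Rnr1, by -0.26 (0.00812), and less mt-Rnr2, by -0.40 (0.014), with 50.3% of all genes called, 22.9% higher and 27.4% lower. The mt-Co1 libraries did not overlap. Without scramble cholesterol library 1 both rRNA calls and the mt-Nd1 call were lost (adjusted p = 0.0692, 0.0789 and 0.076), and the count of called members went from 7 to 2. It went to 4 without scramble cholesterol library 3, when the mt-Nd1 call was lost (0.0621), and to 3 and 4 without siAtf3 cholesterol libraries 2 and 3, when both rRNA calls were lost (0.0513 to 0.0718). Without siAtf3 cholesterol library 1 the mt-Nd1 call was lost (0.0633), and without library 4 that of mt-Rnr2 (0.0607). On library totals the rRNAs differed by -0.08 (adjusted p = 0.398) and -0.21 (0.146), 9 members were called, all higher, the median of all genes moved by 0.17 and the share of higher calls went from 45.5% to 71.1%.

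With cholesterol and both siRNAs, mt-Co1 was higher than with scramble by 0.28 (edgeR adjusted p = 0.000425) and mt-Nd1 by 0.41 (0.00404), against 44.7% of all genes called, 20.6% higher and 24% lower. Both calls held under every alternative run. On library totals 11 members were called, all higher, the median of all genes moved by 0.14 and the share of higher calls went from 46.2% to 72.2%. Without scramble cholesterol library 2 the count of called members went from 4 to 7.

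Ratios within the mitochondrial mRNAs do not depend on how libraries were scaled. Per 100 counts of mt-Cytb there were 272.8 counts of mt-Co1 in scramble control, 276.4 with siNfe2l1, 321.6 with siAtf3 and 349.1 with both siRNAs. With cholesterol the ratio was 289.9, 283.4, 356.5 and 361.7 in the same order. The ratio of mt-Nd1 was 60, 60.6, 70.0 and 77.0 in control cells and 63.0, 63.9, 83.9 and 86.4 with cholesterol. Thus the 2 ratios were higher as group means in the 4 groups that had received siAtf3 than in the 4 that had not, which shows that the mRNAs did not change equally. Both ratios are taken to mt-Cytb, itself called lower in control cells with siAtf3 and with both siRNAs. They are therefore not 2 separate observations. mt-Nd6 per 100 mt-Cytb counts went from 29.1 to 19.7 with cholesterol in scramble cells, and from 26.9 to 26.3, 32 to 26.3 and 30.1 to 26.9 in the siNfe2l1, siAtf3 and double arms.

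The tRNAs were mostly near the lower limit of these libraries. mt-Tf had no count in any of the 32 libraries, which allows a share of up to 3.57e-07% of counts, for counting error only. Of the 22 tRNAs, 12 passed the filter on low counts. Those that did not pass were mt-Tf, mt-Tv, mt-Ti, mt-Tq, mt-Tm, mt-Ta, mt-Ts1, mt-Td, mt-Tk and mt-Tt. mt-Tp, the proline tRNA, was the exception in level at 186.6 CPM, or 2785 CPM per kb. Next came mt-Tc, the cysteine tRNA, at 13.6 CPM and mt-Tn, the asparagine tRNA, at 10.8 CPM.

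These 3 lie on the strand opposite to most genes. A read of a long precursor or of antisense RNA from that stretch can be counted for a tRNA, and without strand the sources cannot be told apart. The tRNAs whose changes are described are shown whole, 5′ to 3′, with the anticodon that a search placed in capitals.
mt-Tp: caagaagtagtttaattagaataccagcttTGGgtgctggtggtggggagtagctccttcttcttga
mt-Tl1: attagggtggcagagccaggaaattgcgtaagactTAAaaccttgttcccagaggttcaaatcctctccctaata
mt-Tn: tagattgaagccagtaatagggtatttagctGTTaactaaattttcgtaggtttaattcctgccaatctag
mt-Ty: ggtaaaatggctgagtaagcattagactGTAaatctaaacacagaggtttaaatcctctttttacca
mt-Th: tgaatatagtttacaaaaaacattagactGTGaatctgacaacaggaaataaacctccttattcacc

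mt-Tl1 (MT, 2676 to 2750), the leucine tRNA for UUR codons that lies directly after mt-Rnr2, rose with cholesterol as a mean over the 4 siRNA treatments by 0.43 (log2; edgeR adjusted p = 7.59e-06). With both siRNAs it stood at 2.23, 2.2, 2.15 and 1.87 CPM in control and at 3.32, 3.18, 3.22 and 3.31 CPM with cholesterol. The groups did not overlap, and the rise was 0.63 (edgeR adjusted p = 0.000368). With siAtf3 it rose by 0.51 (0.00871), and in scramble cells the difference was 0.20 (0.285).

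mt-Tp (MT, 15356 to 15422) had a mean cholesterol effect of 0.28 (edgeR adjusted p = 3.47e-07) and mt-Ty, the tyrosine tRNA, one of 0.25 (0.00131). With siAtf3, mt-Tp stood at 147.1, 137.1, 128.9 and 157.0 CPM in control and at 209.3, 189.7, 198.3 and 188.4 CPM with cholesterol. It rose by 0.46 (edgeR adjusted p = 1.5e-05) with no overlap. In control cells siAtf3 lowered mt-Tp against scramble by 0.40 (0.000275) and mt-Ty by 0.53 (0.00247). These mean effects of mt-Tl1, mt-Tp and mt-Ty, and those of mt-Rnr1 at 0.85 and mt-Rnr2 at 1.09, held under every alternative run, with 78.4% of all genes called for the mean effect, 39.4% as higher and 39% as lower. The other 5 of the 10 members called for the mean effect were mt-Co1 at 0.12, mt-Nd1 at 0.19, mt-Nd2 at 0.20, mt-Co2 at 0.15 and mt-Atp8, an accessory subunit of the ATP synthase, at -0.55. On library totals the first 4 of these were not called. mt-Atp8 was not called without the 8 libraries numbered 1 (adjusted p = 0.0647).

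mt-Th, the histidine tRNA, was called lower with cholesterol in scramble cells, by -2.36 (log2; edgeR adjusted p = 0.00455). Its libraries stood at 1.33, 1.37, 1.04 and 14.6 CPM in control and at 0.515, 0.755, 0.856 and 1.41 CPM with cholesterol, so the call came from control library 4. Without it the difference was -0.48 (adjusted p = 0.178). The same library gave the mt-Th calls against scramble in control cells of -2.10 with siAtf3 and -1.60 with both siRNAs, which without it were -0.22 (adjusted p = 0.602) and 0.28 (0.507). With both siRNAs the call was also lost without any one of the 4 control libraries of that arm (0.0594 to 0.0905).

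mt-Tn stood at 4.45, 11.9, 9.03 and 9.79 CPM with scramble and cholesterol and at 15, 15.4, 16.0 and 12.5 CPM with both siRNAs and cholesterol. It was higher with both siRNAs by 0.73 (edgeR adjusted p = 0.00327), without overlap and without dependence on any one library. With siNfe2l1, cholesterol gave 6 tRNA calls, of which mt-Tp, mt-Ty and mt-Tl1 were higher by 0.21, 0.43 and 0.39 and mt-Tl2, mt-Tg and mt-Tr were lower by -1.18, -0.96 and -1.08 (log2). Each of the 6 was lost without at least 1 siNfe2l1 library. These were control library 1, 2 or 3 or cholesterol library 4 for mt-Tp (adjusted p of 0.0779 to 0.224), control library 4 or cholesterol library 1 for mt-Ty (0.0503 and 0.0501), and control library 1, 3 or 4 or cholesterol library 2, 3 or 4 for mt-Tl1 (0.0539 to 0.206). They were control library 4 or cholesterol library 2 or 3 for mt-Tl2 (0.0566 to 0.067), control library 4 for mt-Tg (0.0752), and control library 1 or 4 or cholesterol library 1 or 2 for mt-Tr (0.0723 to 0.0967). Without siNfe2l1 control library 4 the count of members called in this comparison went from 8 to 3. 

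The remaining tRNA calls were mostly small and fragile. mt-Ty was lower with siAtf3 than with scramble in cholesterol by -0.50 (log2; edgeR adjusted p = 0.00244), and this call was lost only on library totals (0.0539). Cholesterol raised mt-Tn by 0.50 and mt-Ts2, a serine tRNA, by 0.90 with siAtf3, and mt-Tp by 0.25 and mt-Tn by 0.48 with both siRNAs. These were lost without siAtf3 control library 2 or 3 or cholesterol library 1 or 2 (mt-Tn, 0.0581 to 0.123), siAtf3 control library 4 or cholesterol library 2 (mt-Ts2, 0.0502 and 0.0863), cholesterol library 2 of the double arm (mt-Tp, 0.0548), and its control library 1 or cholesterol library 1, 2 or 3 (mt-Tn, 0.0519 to 0.0953). Against scramble in control, mt-Tl1 was lower by -0.46 with siAtf3 and mt-Tp by -0.24 with both siRNAs. They were lost without scramble control library 1 or 3 or siAtf3 control library 2 or 3 (0.0506 to 0.1), and without scramble control library 1 or 2 or library 2 or 3 of the double arm (0.0604 to 0.113).

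Against scramble in cholesterol, mt-Tn was higher by 0.49 and mt-Ts2 by 0.81 with siAtf3, and mt-Tg, the glycine tRNA, by 0.97 with both siRNAs. They were lost without scramble cholesterol library 1 or 3 or siAtf3 cholesterol library 1 or 2 (mt-Tn, 0.059 to 0.195), without scramble cholesterol library 1, 3 or 4 or siAtf3 cholesterol library 2 or 3 (mt-Ts2, 0.0628 to 0.172), and without scramble cholesterol library 1 or 4 or cholesterol library 2 of the double arm (mt-Tg, 0.0572 to 0.0774).

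In scramble cells most nuclear genes that complete the respiratory complexes rose with cholesterol, while 10 of the 13 mitochondrial mRNAs were not called. The 77 nuclear subunit mRNAs tested include that of Atpif1, an inhibitor of the ATP synthase and not a subunit. Of the 77, 62 rose with cholesterol and 1 fell, which was Atpif1. Their median was 0.26 (log2) against 0 for all genes, beside 0 higher and 3 lower of 13 for the mitochondrial mRNAs. The shares over all genes were 32.9% higher and 32.3% lower. For complex I, 30 of 37 nuclear subunit mRNAs rose. Ndufa6 stood at 65.4, 61.6, 63.0 and 61.5 CPM in control and at 104.5, 79.4, 83.6 and 90.9 CPM with cholesterol, a rise of 0.51, and Ndufb1 rose by 0.60. For complex III, 8 of 9 rose, among them Uqcr10 by 0.53 and Uqcrq by 0.52.

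All 11 nuclear complex IV mRNAs tested rose, with a median of 0.35 (log2). Cox7c stood at 156.7, 154.7, 158.9 and 147.6 CPM in control and at 242.7, 198.0, 217.9 and 227.4 CPM with cholesterol and rose by 0.52, and Cox5b rose by 0.46. For the ATP synthase 11 of 16 rose, among them Atp5k by 0.60 and Atp5e by 0.51, and Atpif1, which encodes the inhibitor of the enzyme, fell by 0.37. Complex II has no mitochondrially encoded subunit, and 2 of its 4 mRNAs rose, Sdha by 0.19 and Sdhb by 0.20.

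In the other arms the nuclear subunit mRNAs gave 20 higher and 1 lower of 77 with siNfe2l1 (median 0.11), 47 and 2 with siAtf3 (0.17) and 52 and 1 with both siRNAs (0.19). Of all genes, 31.3% were higher and 29.2% lower with siNfe2l1, 29.6% and 28.8% with siAtf3, and 29.9% and 29.3% with both. With cholesterol present, siNfe2l1 cells had 64 of 77 of them lower than scramble cells and none higher, with a median of -0.25 (log2), while 0 of the 27 mitochondrial members were called. siAtf3 cells had 8 higher and 35 lower, and cells with both siRNAs 4 higher and 28 lower. Of all genes, 11.1% were higher and 8.64% lower with siNfe2l1, 22.9% and 27.4% with siAtf3, and 20.6% and 24% with both.

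**Figure D5:**
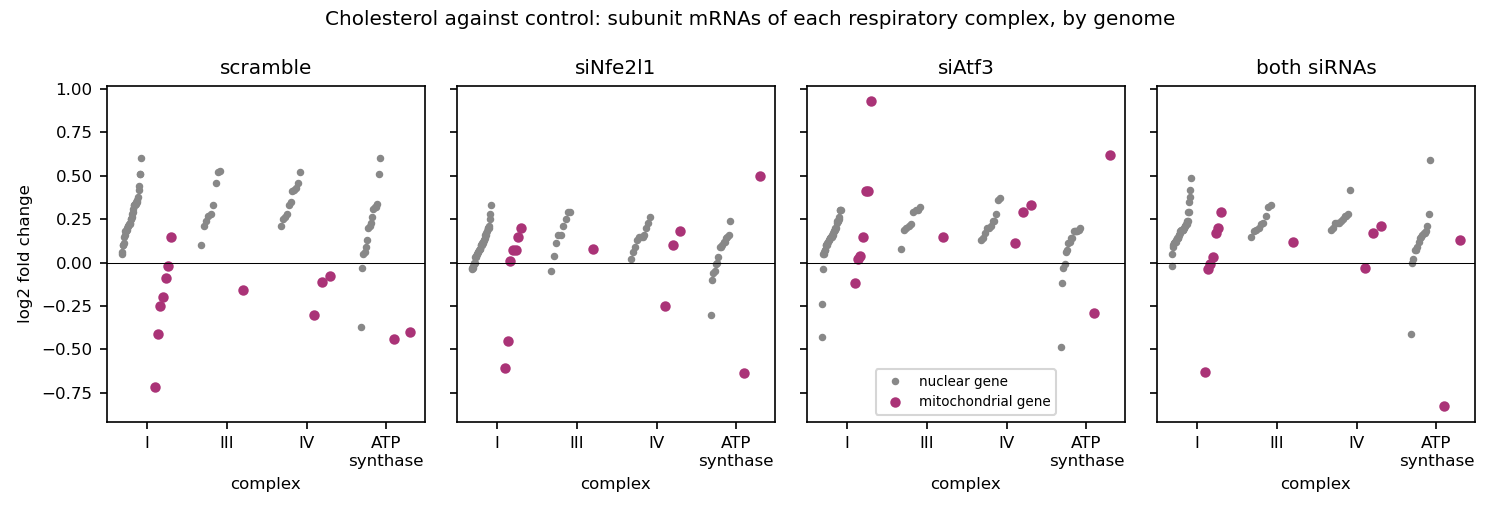
Difference between cholesterol and control (log2) of each nuclear (grey, with Atpif1 included) and mitochondrial (purple) subunit mRNA of complexes I, III and IV and the ATP synthase under the 4 siRNA treatments. In scramble cells the grey points lie mostly above 0, with a median of 0.26 over the respiratory subunits, and 12 of the 13 purple points lie below 0.

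Some genes that act on mitochondrial RNA changed with cholesterol in scramble cells, where 32.9% of all genes tested were called higher and 32.3% lower. Of 25 genes for RNA processing, poly(A) addition and stability, 11 rose and 1 fell, with a median of 0.13 (log2). Mtpap, the poly(A) polymerase, stood at 27.9, 26.5, 28.8 and 25.9 CPM in control and at 52.0, 48.9, 45.2 and 50.1 CPM with cholesterol, a rise of 0.85. Trmt10c, a subunit of mitochondrial RNase P, stood at 25.7, 22.8, 23.0 and 25.8 CPM and then at 53.1, 44.6, 43.1 and 47.8 CPM, a rise of 0.95. Neither had overlapping groups. Pnpt1, which encodes the polynucleotide phosphorylase that degrades mitochondrial RNA, fell by 0.44. The counts for this list in the other arms were 15 higher and 2 lower with siNfe2l1, 15 and 1 with siAtf3 and 18 and 2 with both siRNAs. The shares of all genes higher and lower were 31.3% and 29.2%, 29.6% and 28.8%, and 29.9% and 29.3% in that order.

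Of 12 transcription genes, 6 rose and 1 fell in scramble cells. For this and the following lists, the background was 32.9% of all genes higher and 32.3% lower. Mterf3 rose by 0.42 and Tefm, the elongation factor, by 0.41, and Mterf2 fell by 0.50. Tfam, which packages and activates mitochondrial DNA, differed by 0.02 and Polrmt, the RNA polymerase, by -0.08, and neither was called. Of 13 genes for DNA maintenance 5 rose, among them Rnaseh1 by 0.70 and Atad3a by 0.60, and 4 fell, among them Primpol by 0.51 and Ssbp1, the single-strand binding protein, by 0.37. Of 77 mitochondrial ribosomal protein genes tested, 36 rose and 5 fell, with Mrps18b at 0.63 and Mrpl45 at 0.49 among the highest and Mrpl18 at -0.47 and Mrpl49 at -0.34 among the lowest.

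Of 8 regulators of mitochondrial biogenesis, 6 rose and none fell, and of 12 mitochondrial stress response genes 10 rose and none fell. Members of these lists are named after their values were seen. Ppargc1a, a coactivator of mitochondrial gene programmes, stood at 11.5, 10.8, 11.8 and 11.3 CPM in scramble control and at 63.1, 65.6, 77.6 and 56.8 CPM with cholesterol and rose by 2.54 (log2). With siAtf3 it stood at 4.88, 4.38, 3.87 and 4.73 CPM in control and at 13.6, 10.8, 12.7 and 9.89 CPM with cholesterol. Hspe1, a chaperonin of the mitochondrial matrix, went from 96.3, 90.3, 94.7 and 100.2 CPM to 263.3, 188.5, 206.7 and 209.1 CPM in scramble cells and rose by 1.19. Its groups did not overlap.

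Markers of other cells moved with cholesterol too, and in bulk RNA fewer cells of a type and less RNA per cell cannot be told apart. The background in scramble cells was again 32.9% of all genes higher and 32.3% lower. In scramble cells 5 of 6 precursor or fibroblast markers fell, with summed levels of 11208 to 20973 CPM in the control libraries of all arms and 2408 to 6903 CPM with cholesterol. Of the macrophage markers 5 of 6 fell, with sums of 173.4 to 440.5 and 104.0 to 228.8 CPM. All 5 endothelial markers fell, with sums of 427.3 to 594.3 and 201.9 to 424.9 CPM, and 3 of 5 smooth muscle or pericyte markers fell and 1 rose, with sums of 420.4 to 631.8 and 104.8 to 178.3 CPM. Erythroid markers stood at 0 to 0.483 CPM in sum, with 1 of 3 at 0 in all libraries. Of 8 adipocyte markers 6 rose and 1 fell, and of 6 thermogenic adipocyte markers 5 rose and 1 fell, with sums of 79.6 to 114 CPM in control and 108.1 to 196.0 CPM with cholesterol. The part of these shifts in the mitochondrial results was not tested.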

How the data were processed

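Poly(A)-enriched RNA of 32 libraries was sequenced. The authors deposited raw read counts per gene, made with fastp, HISAT2 2.0.5 and featureCounts 1.5.0-p3 on GRCm39, per the submitters' processing notes. Strand setting and treatment of multi-mapping reads are not given in the sources used here. Columns were mapped to samples by name, an added C being read as cholesterol. Library totals were 23457384 to 33828418 counts. Genes were filtered with filterByExpr (minimum count 10, total 15), which left 16984, and were fitted over all 8 groups (24 residual degrees of freedom) with edgeR 4.0.16 quasi-likelihood tests on TMM-scaled counts in R 4.3.3. A call is a Benjamini-Hochberg adjusted p under 0.05 within each of 14 contrasts. limma 3.58.1 (voom), DESeq2 1.42.0, other scalings, no filter and left-out libraries were tried. The fit was tested on simulated data. Members called were named, and from the nuclear lists the 2 highest and 2 lowest called genes. Members and lists were chosen with earlier results of these data known. Sequences are from GENCODE M21.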

Additional observations from a re-analysis of the deposited data

Results flagged for a closer look

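In 240 groups of 4 libraries, formed by the 27 members that passed the filter and 3 class shares in 8 groups, 17 had a library far from the other 3. Chance gives about 5% of groups. In scramble control cells library 4 was high for mt-Th, at 14.6 CPM, and for mt-Atp6, at 62.4 CPM. With siNfe2l1, control library 4 was high for mt-Nd4, at 1211 CPM. With siAtf3 in control cells mt-Tw stood at 1.05 CPM in library 4, mt-Th at 1.33 CPM in library 1 and mt-Te at 1.02 CPM in library 3, each above the rest. With both siRNAs control library 1 was low for mt-Tn, at 8.51 CPM.

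With siNfe2l1 and cholesterol library 4 was high for mt-Tp at 251.8 CPM, mt-Nd3 at 32.3 CPM, mt-Ts2 at 2.42 CPM and mt-Tg at 1.48 CPM, and library 1 was low for mt-Te at 0.532 CPM. With siAtf3 and cholesterol library 1 was high for mt-Rnr1 at 3560 CPM, for mt-Rnr2 at 2547 CPM and so for the rRNA share at 0.623% of counts, and library 4 was high for mt-Atp8 at 1.35 CPM. With both siRNAs and cholesterol mt-Tw was high in library 2, at 1.5 CPM.

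The response to cholesterol was called as different from that of scramble cells, by an interaction term, for 5 member and siRNA combinations. Of all genes, 15.2% were called for siAtf3 and 13.5% for both siRNAs. With siAtf3 the differences were 0.37 (log2) for mt-Co1, 0.50 for mt-Nd1, 0.44 for mt-Nd5 and -0.39 for mt-Rnr1, and with both siRNAs -0.35 for mt-Rnr1. Only the mt-Co1 call was kept whichever single library was left out.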

How the results depend on the processing

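Replicate numbers gave no general pairing of the libraries over the 1000 genes used and all 8 groups. The correlation of deviations ran from -0.14 to 0.32 over 112 same-numbered pairs. Its median was 0, as for pairs with other numbers, and 8 of 32 libraries correlated best with their own number. In each of the 4 cholesterol groups, however, library 1 was the highest for mt-Rnr1, mt-Rnr2, Rn7sk and Atf3. Pairing in those genes and groups alone was not tested. With the replicate block, called members were 3 in place of 1 for siNfe2l1 against scramble in control, 1 in place of 0 with cholesterol, and 1, 9 and 5 in place of 0, 4 and 1 for the interactions of siNfe2l1, siAtf3 and both. Without a filter the counts were 7 and 4 for cholesterol with siAtf3 and both siRNAs, 0, 7 and 2 for the 3 siRNAs in control, and 1 and 0 for the interactions of siAtf3 and both. Library totals gave 3 for cholesterol with both siRNAs, 5 and 2 for siAtf3 and both in control, and 11 for both with cholesterol. Fits of only the groups compared gave 5 and 12 for cholesterol with siNfe2l1 and both, 7 for siNfe2l1 in control, 4 and 8 for siAtf3 and both with cholesterol, and 11 and 8 for their interactions. limma-voom gave 7 for both with cholesterol and 4 for its interaction, DESeq2 gave 1, 9 and 4 for the interactions, and adding counts of nuclear copies, an alternative chosen after seeing the data, 2 for that of both.

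Without the 8 libraries numbered 1 the counts were 5 for cholesterol with siNfe2l1, 7 for siAtf3 in control, 2 and 4 for siNfe2l1 and siAtf3 with cholesterol, and 2 and 2 for the interactions of siNfe2l1 and both. Without scramble cholesterol library 1 and siNfe2l1 control library 4 they were 5, 3, 1 and 2 for cholesterol with siNfe2l1, siNfe2l1 in control, and siNfe2l1 and siAtf3 with cholesterol, and 1 and 0 for the interactions of siAtf3 and both.

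Leaving out 1 library gave 5 to 9, 3 to 8, 8 to 13 and 5 to 7 called members for cholesterol with scramble, siNfe2l1, siAtf3 and both. It gave 0 to 2, 6 to 11 and 2 to 6 for the siRNAs in control, 0 to 3, 2 to 9 and 3 to 7 with cholesterol, 0 to 4, 1 to 7 and 0 to 5 for the interactions and 10 to 13 for the mean effect. Among single members 1 value reversed, mt-Th with both siRNAs in control, which ran from -1.94 to 0.28 (log2) and reversed without scramble control library 4. Over all alternatives, 253 values of single members lost a call, besides the 1 that reversed. A further 1542 values stayed the same, but these include class shares, which have no call to lose. The cause of these moves was not tested. Depth limits the tRNAs and mt-Atp8 most.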

Other observations

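Within 2 of the cholesterol groups the libraries differed from each other in the mitochondrial classes, and Atf3 differed with them. These values were looked at after the data were seen, and 4 libraries a group are too few for a correlation. In the scramble cholesterol libraries 1 to 4 Atf3 stood at 561.2, 309.8, 439.3 and 280.8 CPM, the mRNA share at 1.31%, 1.52%, 1.33% and 1.62% and the rRNA counts per 100 mRNA counts at 48.0, 33.2, 39.9 and 31.8. With siNfe2l1 and cholesterol Atf3 stood at 481.2, 290.0, 166.4 and 133.7 CPM, the mRNA share at 1.27%, 1.41%, 1.59% and 1.94% and the ratio at 46.4, 33.8, 27.3 and 25.4. In both groups a library with more Atf3 had a smaller mRNA share and a higher ratio than each library with less. Library 1 was the highest for Atf3 and for the ratio in all 4 cholesterol groups, also where Atf3 was silenced. A relation of the mitochondrial classes to Atf3 was not tested. With siAtf3 and with both siRNAs the order of the libraries by Atf3 was not that of the mRNA share, although with both siRNAs it was that of the ratio, and in none of the 4 control groups was it that of the share or the ratio.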
